A study of Mus musculus with 3 samples.

Results

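The genes described are 10 leukocyte adhesion molecules and integrins, Icam1, Icam2, Vcam1, Sele, Selp, Selplg, Itgb2, Itgam, Itgal and Cd44, out of 23361 genes measured in mouse liver mRNA. They were chosen by symbol, and all 10 symbols were found. The mice were C57BL/6J, labelled male, aged 8-10 weeks and fasted for 12 h, and each of the 3 groups is represented by 1 library. In the sham group the abdomen was opened without occlusion and the livers were taken after 90 min. In the warm ischemia (WI) group the vessels to the left and median lobes, about 70% of the liver, were clamped for 90 min. The group of ischemia followed by reperfusion (IR) had the same 90 min of clamping and then 120 min of restored flow. There were 6 mice per group, and whether a library pools several mice is not stated. No sham sample matches the IR sample in time, so the effect of reperfusion cannot be told apart from that of the longer interval between the operation and sampling.

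The sex on the labels was not borne out by every library. Xist, the RNA of the inactive X chromosome, was at 18.9 FPKM after sham surgery, 20.1 after ischemia and 1.29 after reperfusion. The Y-linked genes Ddx3y and Eif2s3y were at 8.58 and 13.2 FPKM in the IR sample, while Ddx3y was listed at 0 in the sham sample and 0.00849 in the WI sample, and Eif2s3y was listed at 0 in both. The libraries labelled sham and WI therefore went against their male label and the IR library did not. In every comparison with the IR sample the difference in sex-linked transcripts cannot be told apart from reperfusion, and no result below can be given without these libraries, because each is the single library of its group.

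FPKM is the number of fragments per kilobase of transcript, scaled to the number of mapped fragments, so that levels can be compared between genes per length. Each deposited FPKM has a lower and an upper 95% bound, given here in parentheses. The bounds come from the authors' model of the counts and do not hold the variation between mice, and with 1 library per group there is no replicate check and no test. A change is the difference in log2(FPKM + 1), given with the standard error that the bounds imply, and it understates the change of genes at low levels. A gene was said to have risen or fallen when FPKM + 1 differed at least 2-fold. A second reading asked whether the 95% bounds of both libraries shared no value. Both readings are set beside the share of the 10792 genes at 1 FPKM or more in at least 1 sample that meet the same rule. All 10 adhesion genes passed that filter, 7 with 1 FPKM or more in each sample and 3 (Sele, Selp and Itgam) through the IR sample alone. Since those 3 had to be highest in the IR sample, no count over the genes that passed is used as support.

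Leukocytes leave the blood in steps. Selectins on activated endothelium (E-selectin, Sele, and P-selectin, Selp) catch sugars carried by ligands such as PSGL-1 (Selplg) and CD44, and the cell rolls. Beta2 integrins then bind ICAM-1 and ICAM-2 on the vessel wall, and VCAM-1 is bound by alpha4 integrins. In the sinusoids of the liver rolling is less needed than in other vessels, and CD44 is known to hold neutrophils there by binding hyaluronan. ICAM-1, VCAM-1 and E-selectin are known as cytokine-induced genes of the endothelium, and VCAM-1 is also made by Kupffer cells, the resident macrophages of the liver.

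After ischemia alone 1 adhesion gene fell and 0 rose, and after reperfusion 4 rose above the WI sample. In the WI sample Vcam1 fell 3.92-fold in FPKM below the sham sample, and 7 of the 10 genes were lower and 3 higher. From the WI to the IR sample Icam1, Sele, Selp and Itgam rose and Itgal fell, and 8 of the 10 genes were higher. Against the sham sample Icam1, Sele and Selp rose in the IR sample while Vcam1 and Itgal fell, and 4 of the 10 were higher and 6 lower.

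The background of these counts differed between the steps. From sham to WI, 0.751% of all genes tested rose and 1.1% fell, beside 0 and 1 of the 10 adhesion genes. Separate bounds were found upward in 0.195% of all genes and downward in 0.482%, beside 0 and 1 (Vcam1). From WI to IR, 5.78% of all genes rose and 1.43% fell, beside 4 and 1 of the 10. Separate bounds were found upward in 3.22% and downward in 0.398% of all genes, beside 3 (Icam1, Sele and Itgam) and 0. From sham to IR, 5.35% of all genes rose and 2.15% fell, beside 3 and 2 of the 10. Separate bounds were found upward in 2.7% and downward in 1.12%, beside 2 (Icam1 and Sele) and 2 (Vcam1 and Itgal). The median change of the 10 genes was -0.34 from sham to WI, 0.52 from WI to IR and -0.08 from sham to IR, and that of all genes tested was 0.02, 0.03 and 0.05. The 3 comparisons share their samples and are not independent of each other.

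**Figure D1:**
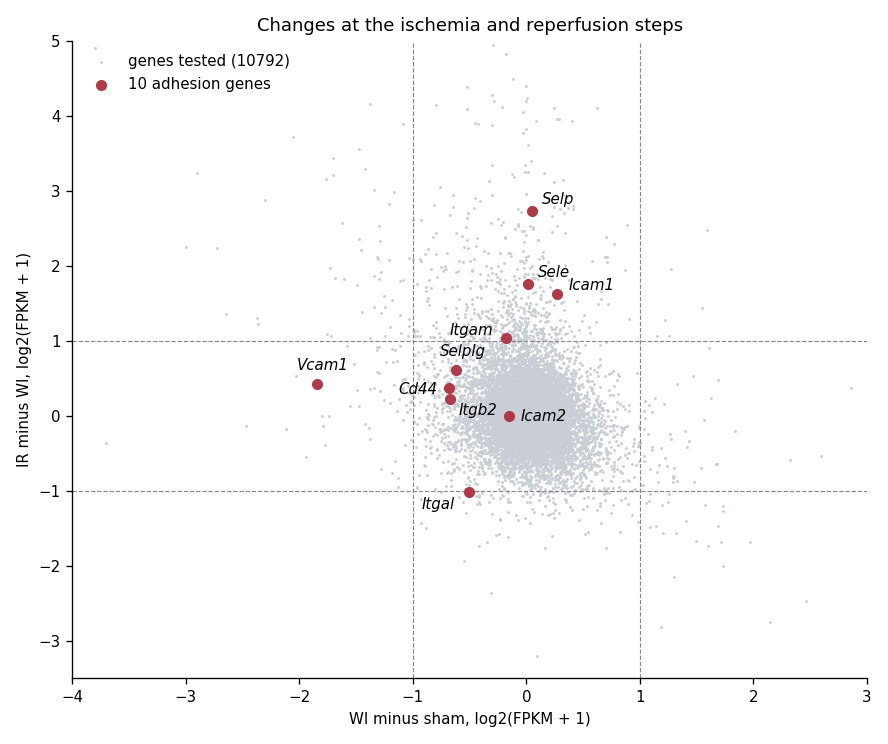
Change from sham to WI (x axis) and from WI to IR (y axis), both in log2(FPKM + 1), for the 10 adhesion genes (red, named) and all 10792 genes tested (grey; 30 genes lie outside the axes), with dashed lines at a 2-fold difference. Vcam1 stands at -1.84 on the x axis, Selp, Sele and Icam1 at 2.73, 1.75 and 1.63 on the y axis, and Itgal at -1.02.

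The scale of the libraries touches the smaller changes. The summed FPKM was 475754 after sham surgery, 487912 after ischemia and 712423 after reperfusion. Rescaling to a common sum lowered the median of all genes by 0.48 from WI to IR and by 0.51 from sham to IR, whereas rescaling by the median ratio lowered it by 0.04 and 0.07. Under the common sum the WI to IR change of Vcam1, Itgb2 and Cd44 turned from 0.43, 0.23 and 0.37 to -0.07, -0.25 and -0.06, and relative to the median of all genes it stayed at 0.39, 0.21 and 0.39. Under the same scaling 3 adhesion genes had risen and 3 fallen from sham to IR, Itgb2 being added to Vcam1 and Itgal, while 2.72% of the 11896 genes then tested had risen and 13.4% fallen. From WI to IR the separate bounds then numbered 1 upward (Sele) and 1 downward (Itgal), in place of 3 and 0.

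The promoters of the 4 genes that rose from WI to IR are shown because that rise chose them, although the error of the Selp change exceeds the change and Itgam lies just under the threshold when rescaled. RefSeq promoters (GRCm38.p6, the mm10 assembly) were at hand for 5 of the 10 genes, these 4 and Cd44. The 250 bases before the annotated start are printed, 5′ to 3′ on the strand of the gene, and capitals mark matches to 6 motifs searched on both strands. Icam1 lies at chr9:21015690-21015939, Sele at chr1:164047984-164048233, Selp at chr1:164115014-164115263 and Itgam at chr7:128062390-128062639, all on the forward strand. RefSeq lets the Sele gene begin further upstream, at chr1:164039614, and the bases before that start are not printed.
Icam1: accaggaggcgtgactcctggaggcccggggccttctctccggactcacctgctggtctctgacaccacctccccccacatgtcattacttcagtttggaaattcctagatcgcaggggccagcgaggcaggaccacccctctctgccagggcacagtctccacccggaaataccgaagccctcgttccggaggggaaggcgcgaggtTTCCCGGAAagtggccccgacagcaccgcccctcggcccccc
Sele: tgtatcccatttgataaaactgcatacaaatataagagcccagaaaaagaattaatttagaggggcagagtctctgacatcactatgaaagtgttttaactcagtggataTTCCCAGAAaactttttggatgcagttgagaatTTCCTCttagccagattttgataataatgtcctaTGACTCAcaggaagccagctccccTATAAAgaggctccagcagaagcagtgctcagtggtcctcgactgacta
Selp: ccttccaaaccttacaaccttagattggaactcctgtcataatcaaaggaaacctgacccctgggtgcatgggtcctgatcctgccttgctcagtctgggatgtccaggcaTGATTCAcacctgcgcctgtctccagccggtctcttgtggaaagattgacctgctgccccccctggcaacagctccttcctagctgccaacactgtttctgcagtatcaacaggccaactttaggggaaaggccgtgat
Itgam: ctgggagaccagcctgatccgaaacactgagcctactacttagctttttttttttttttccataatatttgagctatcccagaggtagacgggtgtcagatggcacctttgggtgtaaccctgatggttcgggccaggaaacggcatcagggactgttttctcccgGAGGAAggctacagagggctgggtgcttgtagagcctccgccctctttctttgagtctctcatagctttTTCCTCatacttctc
Sele held a STAT motif (TTCNNNGAA) at -140 to -132, an AP-1 motif (TGANTCA) at -73 to -67, the letters GAGGAA bound by PU.1 on the reverse strand at -107 to -102, and a TATA box (TATAAA) at -49 to -44, counted with the start base as 0. Icam1 held a STAT motif at -42 to -34, and Selp an AP-1 motif at -139 to -133. Itgam held GAGGAA at -84 to -79 and on the reverse strand at -15 to -10. The NF-kB decamer was searched only as GGGRNNYYCC (R is A or G, Y is C or T). The IRF motif was searched as a pair of GAAA runs with any 2 bases between them. Neither was among the letters of the 5 windows. Looser forms of the decamer were not searched. So tggaaattcc in the Icam1 window and tggatattcc in the Sele window, which each differ in the first base, are not marked as such. The last letters of the Sele run are capitals because they belong to its STAT motif. Over 32851 RefSeq promoters of 300 bases (50 of them after the start), the share with a match was 8.46% for the NF-kB decamer, 7.81% for AP-1, 8.3% for STAT, 3.44% for IRF, 28.3% for GAGGAA and 13.6% for the TATA box. Matches after the start are not printed, and a match is a run of letters and not a bound site.

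Among the ligands on the vessel wall, Icam1 and Vcam1 moved apart. Icam1 (chr9:21015960-21028796, mm10) encodes ICAM-1, the main endothelial partner of the beta2 integrins LFA-1 and Mac-1. It was at 5.58 FPKM (2.84 to 8.33) after sham surgery, 6.91 (3.60 to 10.2) after ischemia and 23.4 (12.5 to 34.3) after reperfusion. The sham and WI samples overlapped, and the IR sample stood above both. From WI to IR it changed by 1.63 ± 0.44 (SE), 3.39-fold in FPKM, and from sham to IR by 1.89 ± 0.44, 4.19-fold. It moved from the 47.7th percentile of the genes tested in the sham sample to the 78.0th in the IR sample, and in the IR sample it was the highest of the 10 genes.

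Vcam1 (chr3:116110020-116129688) encodes VCAM-1, the partner of the integrin alpha4beta1. It was at 30.5 FPKM (15.9 to 45.1) after sham surgery, 7.76 (4.13 to 11.4) after ischemia and 10.8 (5.79 to 15.8) after reperfusion. The sham sample stood above the other samples with no overlap, and the WI and IR samples overlapped. The change was -1.84 ± 0.45 from sham to WI and -1.42 ± 0.45 from sham to IR, and it was 0.43 ± 0.43 from WI to IR. The Kupffer cell and macrophage markers had a summed level of 513 FPKM after sham surgery, 258 after ischemia and 168 after reperfusion. All 9 were lower in the WI than in the sham sample, 3 of them past 2-fold, beside 1.1% of all genes tested. Among these 3 was Cd163, a scavenger receptor for haemoglobin, at 16.2, 4.02 and 2.84 FPKM. The part of these cells in the Vcam1 values was not tested. In bulk samples fewer cells of a type and less RNA per cell cannot be told apart.

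Icam2 (chr11:106377656-106382641) encodes ICAM-2, which resting endothelium already carries. It was at 3.77 FPKM (1.51 to 6.02) after sham surgery, 3.28 (1.27 to 5.29) after ischemia and 3.26 (1.27 to 5.26) after reperfusion. All 3 samples overlapped. The change from sham to IR was -0.16 ± 0.48, smaller than its error.

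**Figure D2:**
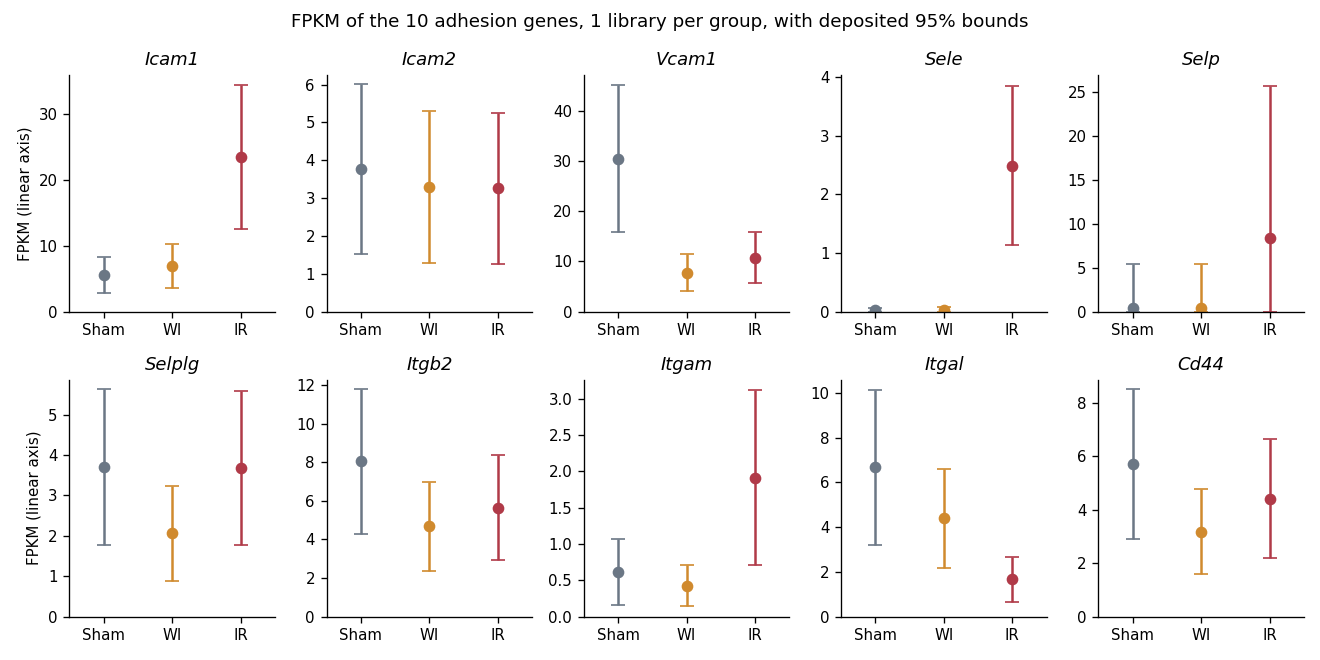
FPKM of each of the 10 adhesion genes in the sham, WI and IR samples on linear axes that differ between panels; points are the deposited FPKM of 1 library and bars its deposited 95% bounds. The IR point of Icam1 and of Sele lies above the bounds of both other samples, the sham point of Vcam1 lies above both others, and the Selp bounds reach 0 in every sample.

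Sele was nearly silent before reperfusion, and the level of Selp there was not determined. Sele (chr1:164048234-164057677) encodes E-selectin, which endothelium makes mainly after activation. It was at 0.0249 FPKM (0 to 0.0609) after sham surgery, 0.0340 (0 to 0.0767) after ischemia and 2.49 (1.13 to 3.84) after reperfusion. The IR sample stood above both others with no overlap. In genes at low levels the ratio of upper bound to FPKM took a few repeated values, which were read as 1, 2 and 3 fragments after the data had been seen. By that reading Sele rested on 2 fragments after sham surgery, 3 after ischemia and an estimated 159 after reperfusion. The FPKM ratio was 99.8 between IR and sham (95% interval 27.2 to 831) and 73.1 between IR and WI (24.6 to 358). These intervals cover counting error alone. On the log2(FPKM + 1) scale the change from WI to IR was 1.75 ± 0.28, and it was 4.27 with a pseudocount of 0.1.

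Selp encodes P-selectin, stored ready-made in granules of endothelium and platelets. It was at 0.369 FPKM (0 to 5.40) after sham surgery, 0.415 (0 to 5.41) after ischemia and 8.39 (0 to 25.7) after reperfusion. The IR value was the highest, but the bounds of all 3 samples overlapped and reached 0. The change from WI to IR was 2.73 ± 2.87, so its error was as large as the change. The authors' files give Selp the locus chr1:164115264-164220274, which it shares with F5, the gene of coagulation factor V, and with Gm16548. F5 was at 81.8, 75.6 and 46.5 FPKM in the sham, WI and IR samples, lowest where Selp was highest, with overlapping bounds. Gm16548 was at 4.60, 5.58 and 8.53 FPKM, highest in the IR sample like Selp, and its bounds also reached 0 in every sample. How the fragments of this locus were split between the 3 genes was not tested. Without Selp, 3 of 9 adhesion genes had risen and 1 fallen from WI to IR, beside 5.78% and 1.43% of all genes tested. From sham to IR 2 of 9 had risen and 2 fallen, beside 5.35% and 2.15%.

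The selectin ligand stayed within 2-fold in every comparison. Selplg (chr5:113817798-113830501) encodes PSGL-1 on leukocytes, which P-selectin binds. It was at 3.71 FPKM (1.78 to 5.63) after sham surgery, 2.07 (0.892 to 3.24) after ischemia and 3.69 (1.78 to 5.60) after reperfusion. All 3 samples overlapped, the WI value being the lowest. Its change was -0.62 ± 0.40 from sham to WI, 0.61 ± 0.40 from WI to IR and -0.01 ± 0.42 from sham to IR.

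The beta2 integrin chain and its partners Itgam and Itgal took different courses. Itgb2 (chr10:77530348-77565674) encodes CD18, the chain shared by all beta2 integrins of leukocytes. It was at 8.04 FPKM (4.27 to 11.8) after sham surgery, 4.68 (2.38 to 6.98) after ischemia and 5.64 (2.92 to 8.36) after reperfusion, with overlap between all 3. Its change was -0.67 ± 0.42 from sham to WI and -0.45 ± 0.42 from sham to IR.

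Itgam (chr7:128062640-128118491) encodes CD11b, which joins CD18 to form Mac-1 of neutrophils, monocytes and macrophages. It was at 0.615 FPKM (0.159 to 1.07) after sham surgery, 0.424 (0.140 to 0.708) after ischemia and 1.91 (0.712 to 3.11) after reperfusion. The IR sample was highest, its lower bound lay just above the WI upper bound, and it overlapped the sham sample. The change from WI to IR was 1.03 ± 0.33, 4.51-fold in FPKM, and that from sham to IR was 0.85 ± 0.36. Under both rescalings the WI to IR change was just under 2-fold in FPKM + 1, at 0.98 and 0.99, and the bounds of both samples overlapped.

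Itgal (chr7:127296260-127335137) encodes CD11a, which joins CD18 to form LFA-1 of lymphocytes and other leukocytes. It was at 6.67 FPKM (3.22 to 10.1) after sham surgery, 4.39 (2.18 to 6.60) after ischemia and 1.66 (0.663 to 2.67) after reperfusion. The values stood in that order, and the IR sample lay below the sham sample with no overlap while it overlapped the WI sample. The change was -1.02 ± 0.40 from WI to IR and -1.52 ± 0.42 from sham to IR, and the sham value was 4.01-fold the IR value.

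The level of Itgam relative to Itgal was higher in the IR sample. The ratio of Itgam to Itgal in FPKM was 0.0922 (0.0373 to 0.228) after sham surgery, 0.0966 (0.0418 to 0.223) after ischemia and 1.15 (0.481 to 2.74) after reperfusion. The IR ratio stood above both others with no overlap, its own interval spans 1, and no scaling between libraries enters it. With Itgax (CD11c) and Itgad (CD11d) the alpha chains summed to 7.75, 5.30 and 3.84 FPKM. Itgam held 7.93%, 8.01% and 49.7% of that sum and Itgal 86.0%, 82.9% and 43.3%. Itgb2 was 1.04, 0.883 and 1.47 times the sum of its partners.

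**Figure D3:**
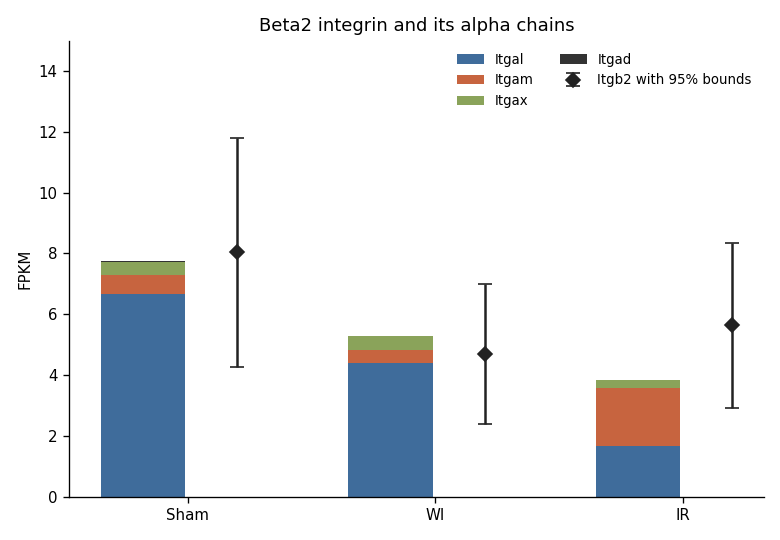
FPKM of the alpha chains Itgal, Itgam, Itgax and Itgad (stacked bars) and of the beta2 chain Itgb2 (diamonds with deposited 95% bounds) in the sham, WI and IR samples. The stack falls from 7.75 to 5.30 and 3.84 FPKM, and the Itgam part is 7.93% in the sham and 49.7% in the IR sample.

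Cd44 (chr2:102811142-102901665) encodes the hyaluronan receptor of leukocytes and many other cells. It was at 5.70 FPKM (2.89 to 8.51) after sham surgery, 3.17 (1.58 to 4.77) after ischemia and 4.41 (2.18 to 6.64) after reperfusion. The WI value was the lowest and all 3 samples overlapped. Its change was -0.68 ± 0.41 from sham to WI, 0.37 ± 0.41 from WI to IR and -0.31 ± 0.42 from sham to IR.

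The order of levels per length changed between the samples. In the sham sample it ran Vcam1, Itgb2, Itgal, Cd44, Icam1, Icam2, Selplg, Itgam, Selp and Sele, and the bounds of neighbours were separate only between Vcam1 and Itgb2 and between Selplg and Itgam. In the WI sample it ran Vcam1, Icam1, Itgb2, Itgal, Icam2, Cd44, Selplg, Itgam, Selp and Sele, with separate neighbours only at Selplg and Itgam. In the IR sample it ran Icam1, Vcam1, Selp, Itgb2, Cd44, Selplg, Icam2, Sele, Itgam and Itgal, and the bounds of every pair of neighbours overlapped. Vcam1 was at the 83.6th percentile of the genes tested in the sham sample and the 62.9th in the IR sample, Sele at the 0.278th and the 25.5th, and Itgal at the 52.7th and the 16.4th.

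A wider list of 73 other genes of leukocyte adhesion was read in the same way. Of these, 72 were in the files (Cd99 was not found) and 47 passed the filter. From sham to WI, 0 rose and 1 (Lyve1) fell, beside 0.751% and 1.1% of all genes tested. In that comparison 37 were lower and 10 higher, with a median change of -0.18. From WI to IR, 5 rose (B4galt1, Vcl, Lyve1, Tnfaip6 and Cd93) and 0 fell, beside 5.78% and 1.43% of all genes. Bounds were separate in 4, and the median was 0.09. From sham to IR, 3 rose (Vcl, Lyve1 and Tnfaip6) and 0 fell, beside 5.35% and 2.15%, with a median of -0.16. Under the common sum that last count was 2 risen and 10 fallen, beside 2.72% and 13.4% of all genes, and under the median ratio 2 and 1, beside 4.73% and 2.65%. From WI to IR the common sum gave 3 risen and 4 fallen, beside 3.28% and 10.1% of all genes.

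Lyve1, a hyaluronan receptor of sinusoidal and lymphatic endothelium, was at 11.2 FPKM after sham surgery, 2.73 after ischemia and 33.4 after reperfusion. The bounds of its 3 samples were all separate, the WI sample lying below and the IR sample above the sham sample. Tnfaip6, a hyaluronan-binding secreted protein, was at 0.315, 0.0258 and 1.69 FPKM in the same order. Vcl, the vinculin of focal adhesions, was at 4.08, 4.85 and 14.0 FPKM, with a change of 1.56 from sham to IR. Cd93, a receptor of endothelium and myeloid cells, was at 1.55, 0.762 and 3.70 FPKM. B4galt1, a galactosyltransferase that helps build selectin ligands, was at 12.7, 10.6 and 23.0 FPKM. These 5 genes were named because they rose from WI to IR, so a high IR value is what chose them. Vcl was the one whose WI value lay above the sham value.

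In FPKM + 1 the other integrins and junction genes stayed within 2-fold, although some, such as Itga4, Itgb3 and Cdh5, passed 2-fold in FPKM itself. Itga4, the alpha4 chain that binds VCAM-1, was at 1.24, 0.626 and 0.336 FPKM in the sham, WI and IR samples, and its partner Itgb1 at 48.6, 45.4 and 40.9. Pecam1, through which leukocytes pass between endothelial cells, was at 10.2, 6.52 and 7.74 FPKM, and Cdh5, the cadherin of endothelial junctions, at 12.5, 8.15 and 16.9. Itgb3, an integrin chain of platelets and endothelium, was at 1.99, 0.760 and 2.18 FPKM. Adam17, a protease known to shed adhesion molecules, was at 5.58, 5.06 and 6.26 FPKM.

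**Figure D4:**
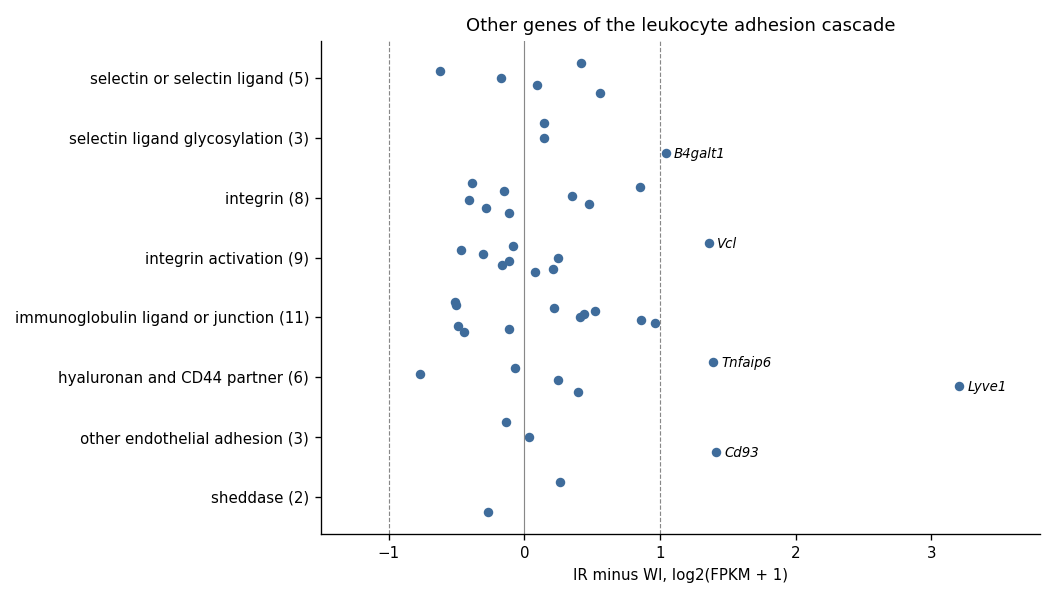
Change from WI to IR in log2(FPKM + 1) for the 47 other adhesion genes that passed the filter, 1 point per gene, grouped by role with the number of genes in parentheses; dashed lines mark a 2-fold difference. The 5 named genes lie to the right of the upper line and 0 to the left of the lower line.

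Genes known to act upstream of endothelial adhesion molecules were read from a list of 26, of which 20 passed the filter. From sham to WI 1 rose (Fos) and 1 fell (Il1r1), beside 0.751% and 1.1% of all genes tested. From WI to IR 8 rose and 0 fell, beside 5.78% and 1.43%. From sham to IR 9 rose and 0 fell, beside 5.35% and 2.15%. No rescaled count was made for this list. Il1b, a cytokine that switches on ICAM-1 and E-selectin, was at 4.24 FPKM after sham surgery, 7.29 after ischemia and 23.4 after reperfusion, with a change of 2.22 from sham to IR. Its receptor Il1r1 was at 17.9, 6.05 and 67.8 FPKM, lowest in the WI sample like Vcam1 and Lyve1. Tnf did not pass the filter and was listed at 0, 0.0851 and 0.808 FPKM, while its receptor Tnfrsf1a was at 30.8, 36.8 and 80.2.

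All 5 genes of the NF-kB pathway were higher in the IR than in the sham sample, 3 of them past 2-fold in FPKM + 1. The 6 reference genes were higher in the IR sample too, with a median change of 0.61 and Actb (131, 148 and 301 FPKM) at 1.19, beside 1.19 for Rela. Rela, the p65 subunit, was at 10.7, 10.6 and 25.6 FPKM, Relb at 1.17, 1.56 and 4.71, and Nfkb2 at 1.89, 2.17 and 5.20. Nfkb1 was at 5.42, 5.60 and 8.50 FPKM and Nfkbia, the inhibitor IkB-alpha, at 32.5, 25.6 and 47.8. Klf6, a zinc finger factor, rose from 5.89 FPKM in the sham and 3.70 in the WI sample to 21.3 in the IR sample, and Stat3 rose from 19.5 and 24.0 to 52.3. Fos had risen already in the WI sample, at 8.31, 28.9 and 40.6 FPKM, and Jun was at 71.7, 39.1 and 111. Klf2, a factor of resting endothelium, was at 8.56, 6.89 and 8.04 FPKM. Irf1, an interferon-induced factor, was at 8.06, 17.0 and 15.3 FPKM, with a change from sham to WI of 0.99 in log2(FPKM + 1), just under the threshold. Spi1 (listed as Sfpi1), which encodes PU.1 of myeloid cells, was at 11.2, 9.42 and 8.32 FPKM, and the endothelial genes Erg and Nos3 at 2.73, 2.02 and 2.09 and at 1.25, 0.676 and 1.51. Tnfrsf1b was at 17.8, 9.76 and 13.5 FPKM, Il1a at 4.94, 3.61 and 5.16, and Klf4 at 1.49, 0.966 and 1.10. Il6, Ifng, Lta, Runx1 and Gata2 did not pass the filter and were at 0.446 FPKM or less in every sample.

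Because the adhesion genes belong to endothelium, leukocytes or both, the markers of these cells are set beside them. Hepatocyte markers were high, as the liver label requires, with a summed hepatocyte level of 13140, 10148 and 15829 FPKM in the sham, WI and IR samples, although Alb was listed at 0 in all 3. Apoa1, an apolipoprotein, was at 7630, 4239 and 8799 FPKM and passed 2-fold from WI to IR, and Ttr was at 4241, 4591 and 5765. Of 10 neutrophil markers 9 were in the files (Ly6g was not found), and their sum was 26.0 FPKM after sham surgery, 19.6 after ischemia and 471 after reperfusion. S100a8 was at 13.6, 9.17 and 212 FPKM, S100a9 at 8.86, 8.07 and 204, and Retnlg at 1.53, 1.18 and 36.6. These 3 and Csf3r (1.17, 0.689 and 4.61) rose from WI to IR with separate bounds, which 3.22% of all genes tested had in that direction. Mmp8, Cxcr2 and Ngp, at 8.59, 3.65 and 1.80 FPKM in the IR sample, passed the filter through that sample alone and so had to be highest there, and the granule genes Ltf and Camp did not pass it, at 0.237 and 0.0953. Itgam moved with this list, and with the monocyte list below, from WI to IR, and Itgb2, Selplg and Itgal did not pass 2-fold upward.

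The summed level of the monocyte list was also highest in the IR sample, while those of the other leukocyte lists were lowest there. The monocyte markers summed to 9.96, 6.66 and 21.8 FPKM. Chil3 (listed as Chi3l3) was at 0.327, 0.258 and 7.51 and F13a1 at 0.0362, 0.0755 and 2.34. Both passed the filter through the IR sample alone and so had to be highest there. Ly6c2 was at 4.24, 2.46 and 7.49, Fcgr1 at 4.48, 2.84 and 3.57, and Ccr2 at 0.879, 1.03 and 0.932. Of 9 Kupffer cell and macrophage markers 7 fell from sham to IR, beside 2.15% of all genes tested. Among them were Cd5l (203, 90.4 and 59.0 FPKM), Clec4f (115, 65.3 and 32.7), Vsig4 (67.8, 35.1 and 12.4) and Csf1r (36.2, 20.6 and 8.33). Marco and Cd68 did not fall past 2-fold, at 20.9, 12.6 and 25.3 FPKM and at 18.5, 12.3 and 18.5. Also past 2-fold downward were Adgre1 (listed as Emr1, 22.5, 9.74 and 5.06 FPKM) and Timd4 (13.6, 8.16 and 3.78). No rescaled count was made for the marker lists. Under the common sum 13.4% of all genes fell from sham to IR.

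The T and NK cell markers summed to 10.2, 10.1 and 4.77 FPKM and the B cell markers to 4.69, 2.59 and 1.87. The highest of them were Gzma at 2.67, 3.34 and 2.19 FPKM, Nkg7 at 2.58, 2.23 and 0.851, and Cd79b at 2.15, 1.13 and 0.842. Ptprc, the CD45 of all leukocytes, was at 5.48, 3.78 and 3.27 FPKM. Itgal moved downward with these lists and with the macrophage list. The platelet markers, beside Selp, summed to 3.07, 2.71 and 5.58 FPKM, with Pf4 at 1.05, 1.24 and 2.92.

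All 9 endothelial markers were lower in the WI than in the sham sample, and 8 of 9 were lower in the IR sample. They summed to 196, 155 and 128 FPKM, a sum held mostly by Clec4g, Fcgr2b and Eng. Cdh5 was the marker above its sham level in the IR sample, and it and Pecam1 were higher there than in the WI sample. Clec4g was at 70.7, 55.9 and 41.4 FPKM, Fcgr2b at 42.0, 36.4 and 23.5, and Eng at 22.7, 18.4 and 15.7. Kdr, at 10.9, 9.45 and 4.80, was the 1 endothelial marker past 2-fold, from sham to IR, beside 2.15% of all genes tested. The stellate markers summed to 178, 124 and 122 FPKM, a sum held mostly by Dcn at 130, 91.2 and 95.5. From sham to IR 4 of them were lower and 3 higher. Lrat (4.96, 4.12 and 1.46) and Colec11 (33.9, 20.5 and 15.9) fell, beside 2.15% of all genes tested. Those higher were Col1a1 (1.05, 1.05 and 2.69), Des (1.91, 1.45 and 1.97) and Pdgfrb (1.03, 1.35 and 1.36), all within 2-fold in FPKM + 1. The cholangiocyte markers summed to 2.48, 3.29 and 6.92 FPKM, with Epcam at 1.24, 1.34 and 2.64, and Sox9 rose to 1.91 from 0.275 in the sham sample. The part of these shifts in cell markers in the adhesion gene values was not tested.

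**Figure D5:**
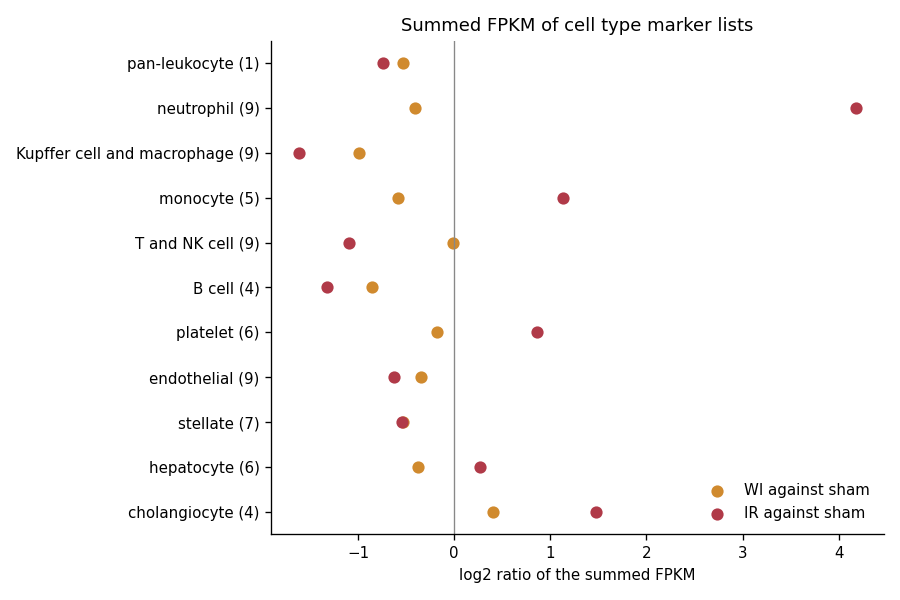
Log2 ratio of the summed FPKM of each cell type marker list, WI against sham (orange) and IR against sham (red), with the number of markers in parentheses; 1 library per group and no error bars. The neutrophil sum was 26.0 FPKM in the sham and 471 in the IR sample, while the Kupffer cell and macrophage sum was 513 and 168.

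For the 3 adhesion genes with the largest change from sham to IR, the genes with the most similar pair of changes (sham to WI and WI to IR) were looked up by Euclidean distance over the 3 libraries. Nearest to Sele were Npy, Tnip2, Tnfsf14, Il1f9 and Fpr2, at distances of 0.0225 to 0.0955, with 6 genes within 0.1. Nearest to Icam1 were Pgm1, S100g, Rpl26, Midn and Upp1, from 0.0193 to 0.121, with 2 genes within 0.1. Nearest to Selp were Mup3 at 0.0961, Chi3l3, Ier3, Gadd45a and Cyp7b1 at up to 0.203, with 1 gene within 0.1. Fpr2, a chemoattractant receptor of phagocytes, was at 1.95, 1.91 and 9.43 FPKM in the sham, WI and IR samples, and Tnip2, an inhibitor of NF-kB activation, at 1.53, 1.53 and 7.75. Likeness over 3 libraries is a description and says nothing of shared control.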

How the data were processed

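Liver mRNA of 3 groups (sham, WI and IR), 1 library each, was analysed. Per the labels and the study's methods, the authors mapped read pairs to mm10 with TopHat2 2.0.9 and computed FPKM with Cufflinks 2.0.2 (Cuffdiff), and deposited the FPKM of each of 23361 genes with its 95% bounds and a status. The files hold no counts, so depth per gene is unknown beyond the fragments read for low genes, a reading checked at a tolerance of 0.001 on genes under 0.05 FPKM. By it, 1 fragment was worth 0.901 times as much FPKM in the WI and 1.26 times as much in the IR as in the sham sample. The median coefficient of variation in the bounds was 26.0% in each sample. No column of other samples was present in the files.

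Changes are differences in log2(FPKM + 1), and genes at 1 FPKM or more in at least 1 sample were kept (10792). The standard error was taken from the bounds, which span 2 SD to each side. With 1 library per group no test was run. The 10 genes and all lists were chosen with earlier results of these data known. The genes named are the 10, other adhesion genes past 2-fold, the listed regulators, up to 3 markers per list and those past 2-fold, and the 5 nearest patterns of 3 genes. Other integrin and junction genes, and some further markers, were named after their values were seen. 1 gene was left out of the wider adhesion list and is not reported here. Symbols missing from the files were matched through RefSeq synonyms (Spi1, Adgre1 and Chil3). Locus starts in the files count from 0 and are printed from 1. Motif letters were searched in RefSeq promoters of GRCm38.p6. Alternatives were pseudocounts of 0.1 and 0.01, rescaling to a common sum or by the median ratio, no filter or 5 FPKM, status OK, thresholds of 1.5-fold and 4-fold, and, added after seeing the data, leaving out Selp. The scripts were tested on simulated data. The software was matplotlib 3.10.9, scipy 1.17.1, pandas 2.3.3 and numpy 2.4.6 under Python 3.11.15.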

Additional observations from a re-analysis of the deposited data

How the results depend on the processing

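Of the 30 changes of single adhesion genes (10 genes, 3 comparisons), 24 moved by less than the error of the bounds with a pseudocount of 0.1, 23 with 0.01, 16 under the common sum and 30 under the median ratio, and no called change turned its direction. The counts of adhesion genes past 2-fold (1 from sham to WI, 5 from WI to IR, 5 from sham to IR) became 4, 6 and 6 at 1.5-fold and 0, 1 and 1 at 4-fold. With a filter of 5 FPKM the WI to IR count became 3, and that of separate bounds fell from 3 to 1, since fewer genes were kept. Over the wider adhesion list the counts (1, 5 and 3) became 2, 10 and 14 at 1.5-fold and 0, 1 and 0 at 4-fold. From sham to WI that list gave 3 with a pseudocount of 0.1, 4 with 0.01 and 2 under the common sum. From WI to IR it gave 8 with 0.01 and 3 with the filter of 5 FPKM. From sham to IR it gave 8 with either pseudocount (5 risen and 3 fallen) and 12 under the common sum (2 risen and 10 fallen). No share of all genes was taken at 1.5-fold, at 4-fold, with the smaller pseudocounts or with the filter of 5 FPKM. The counts there have no background beside them and show only how the calls depend on the setting. Over all genes the common sum gave 390 risen and 1200 fallen of 11896 from WI to IR, in place of 624 and 154 of 10792, and 324 and 1598 from sham to IR, in place of 577 and 232. A smaller pseudocount gives larger changes to genes at low levels. The common sum shifts the log2 FPKM ratio of every gene by -0.546 from WI to IR and by -0.583 from sham to IR. How much of each count follows from these was not tested. Leaving out Selp gave 1, 4 and 4. Leaving out a replicate was not possible with 1 library per group. No paired analysis was possible because each group has a single library. The missing replicates, the sex-linked transcripts that set the IR library apart and the lack of a sham sample matched to it in time limit every value given.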
